A study of Oryza sativa with 3 samples.

Results

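The short arms of rice chromosomes 11 and 12 begin with a segment that is present on both, and the peaks of the WRKY protein OsWRKY11 in the outermost 3 Mb of each arm are described here. Members were taken by position alone, as every peak whose summit lay between base 1 and base 3000000 of either chromosome. The list of replicate 1 held 254 such peaks of 15980, and that of replicate 2 held 328 of 21447, or 582 of 37427 over both lists. Chromosome 11 had 136 and 172 of them, and chromosome 12 had 118 and 156.

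The peaks come from DNA affinity purification sequencing, in which a tagged protein made outside the cell captures fragments of purified genomic DNA that are then sequenced. A pair of reactions used OsWRKY11 fused to the Halo tag, titled SYZ1 and SYZ2 and called replicate 1 and replicate 2. The remaining library is the control of both lists and used green fluorescent protein with the same tag (GFP-Halo). Its title is DZZ while the protocol spells the control DDZ, and DZZ was taken to be that control. All 3 libraries carry the tissue label shoot, and the DNA is described as a fragment library of the cultivar Nipponbare, made from seedlings. The labels give no plant genotype or treatment that separates the groups, and the protein is the difference they name. One protocol field also describes formaldehyde fixation of shoots from pUbi:OsWRKY11-Myc plants, and the labels do not settle whether that step was used. Separate protein or DNA preparations are not stated either, so the spread between the replicates may be technical.

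WRKY proteins are plant transcription factors, known for roles in defence and development, that bind the W-box, a short motif found in many promoters. The arms of chromosomes 11 and 12 are known to share a large duplicated segment whose copies have stayed unusually alike, in part through gene conversion, and both chromosomes are known for clusters of disease resistance genes. In an assay on naked DNA, copies with the same sequence offer the protein the same sites. Fragments from such sequence can also align equally well to either copy, and no source used here says how fragments with more than 1 place of alignment were treated. The sequences of the copies were not compared here, so the duplication and its end at 3 Mb are taken from the definition of the segment and were not tested. Positions follow the authors' peak lists. Their build is not stated in the sources used here, and sites are therefore named by position rather than by gene.

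The first comparison asked whether the copies carried equal numbers of peaks. Chromosome 11 had more peaks than chromosome 12 in each list, but the difference was within counting error. In replicate 1 chromosome 11 had 45.3 peaks per Mb (exact 95% Poisson interval 38.0 to 53.6) and chromosome 12 had 39.3 (32.6 to 47.1). In replicate 2 the densities were 57.3 (49.1 to 66.6) and 52.0 (44.2 to 60.8). The ratio of chromosome 11 to chromosome 12 was 1.15 in replicate 1 (exact 95% interval 0.894 to 1.49) and 1.10 in replicate 2 (0.883 to 1.38), with a mean of 1.13 ± 0.0353 (SD, n = 2 lists). A two-sided exact binomial test gave p = 0.286 and p = 0.408. Both became 0.703 after Benjamini-Hochberg adjustment over the 16 binomial and Fisher's exact tests made on the segment. The intervals reach up to a 1.49-fold difference and do not show that the copies are equal.

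Peaks vary more between regions than counting error alone. Over the 117 whole windows of 3 Mb on the 12 chromosomes, the number of peaks was 129 ± 20.2 (SD) in replicate 1 and 173 ± 25.8 in replicate 2, and the variance was 3.16 and 3.83 times the mean. The intervals and p-values above are thus too narrow and too small. The copies differed by 18 peaks in replicate 1 and 16 in replicate 2, less than 1 SD between windows, and neighbouring windows of a chromosome differed by medians of 17 and 19. The copy on chromosome 11 was near the middle, with 46 windows holding more peaks and 69 fewer in replicate 1, and 66 more and 50 fewer in replicate 2. The copy on chromosome 12 was lower in the order, with 83 and 84 windows holding more.

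**Figure D1:**
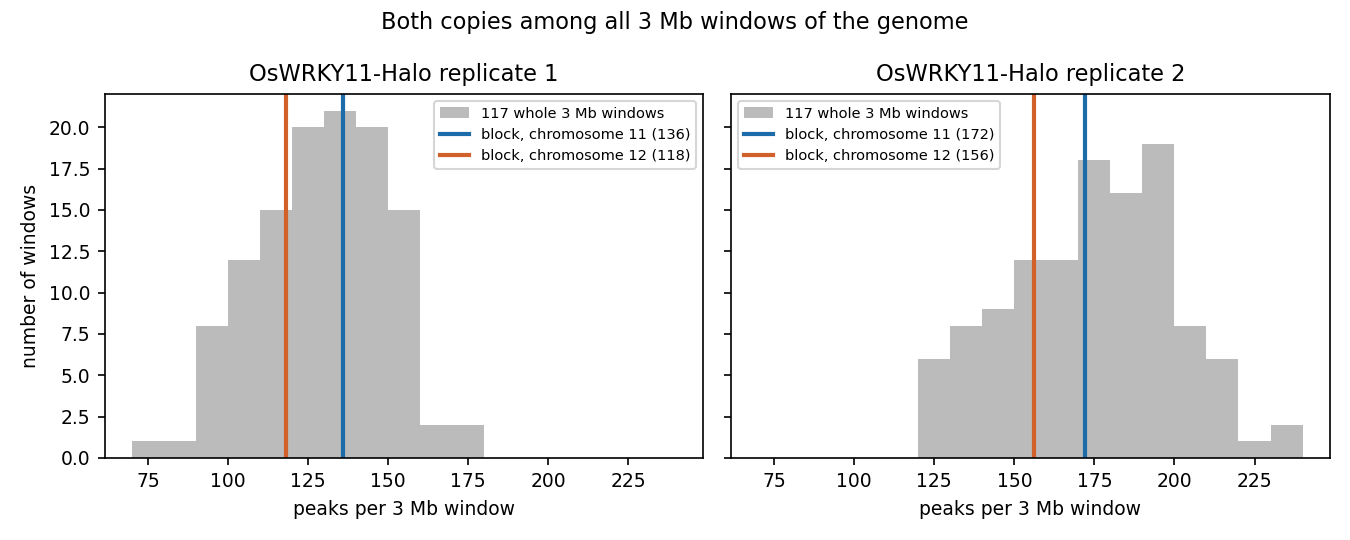
Number of 3 Mb windows (vertical axis) by their number of peaks (horizontal axis), for each OsWRKY11-Halo list, with the first window of chromosomes 11 and 12 as coloured lines. Both copies lie within the body of the distribution, at 136 and 118 peaks in replicate 1 and at 172 and 156 in replicate 2.

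Next, the segment was set against the following 6 Mb of the same chromosome, from 3 to 9 Mb. On chromosome 11 the densities were 45.3 in the segment and 43.5 peaks per Mb beyond it in replicate 1, and 57.3 and 61.8 in replicate 2. The ratios were 1.04 (exact 95% interval 0.841 to 1.29) and 0.927 (0.769 to 1.11), on either side of 1. On chromosome 12 the segment was the sparser part in both lists, with 39.3 against 44.2 peaks per Mb in replicate 1 and 52.0 against 60.3 in replicate 2. In replicate 1 the order held against the nearer 3 Mb and turned against the farther: there were 51 peaks per Mb from 3 to 6 Mb and 37.3 from 6 to 9 Mb, and the ratio to the latter alone was 1.05. The ratios to the whole 6 Mb were 0.891 (0.711 to 1.11) and 0.862 (0.710 to 1.04), with a mean of 0.876 ± 0.0203 (SD, n = 2 lists). None of the 4 ratios passed the exact binomial test, with an adjusted p of 0.703 for 3 of them and 0.873 for chromosome 11 in replicate 1. At unadjusted p under 0.05 the count was 0 as well, the lowest p being 0.124. Without peaks of 40 or more fragments at the summit, the ratios on chromosome 12 were 0.952 (0.758 to 1.19) and 0.920 (0.756 to 1.12).

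Within the segment the windows of 1 Mb ran from 39 to 50 peaks on chromosome 11 and from 32 to 43 on chromosome 12 in replicate 1. In replicate 2 they ran from 55 to 59 on chromosome 11 and stood at 52 in each window of chromosome 12. The lowest number in the segment, 32 in the outermost window of chromosome 12 in replicate 1, was not matched in replicate 2, where that window held as many peaks as its neighbours.

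**Figure D2:**
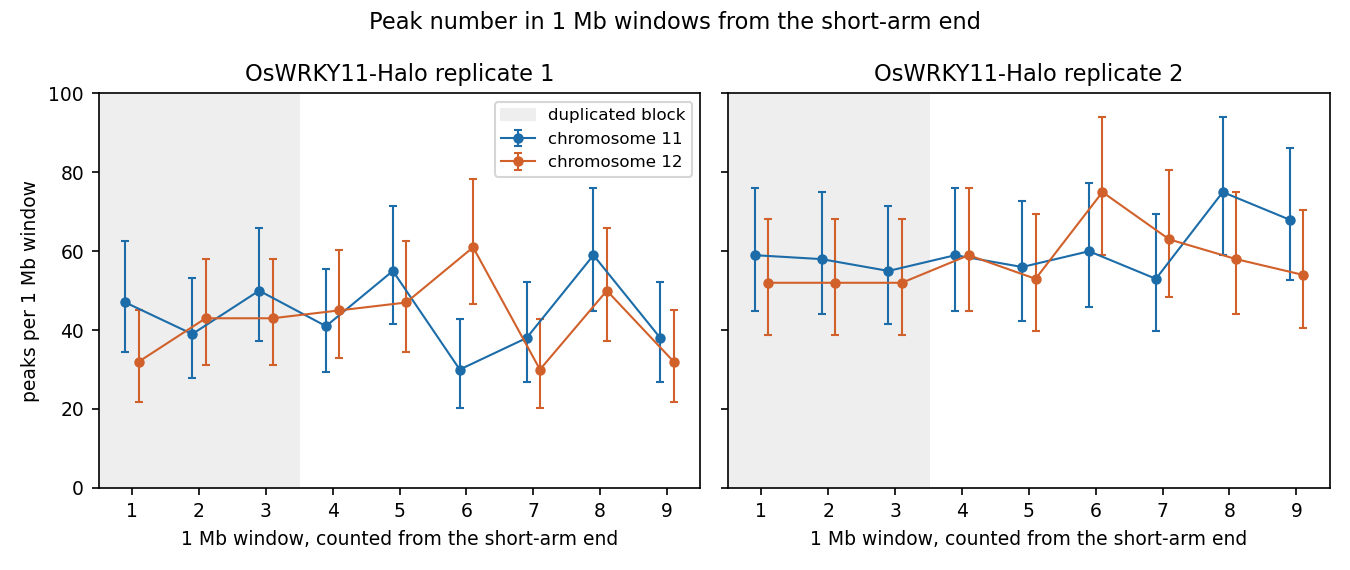
Peaks per 1 Mb window (vertical axis) for windows 1 to 9 from the short-arm end (horizontal axis), with exact 95% Poisson intervals as bars and the 3 windows of the duplicated segment shaded. In replicate 2 the segment holds 52 to 59 peaks a window. The intervals of the windows on either side of its inner edge overlap in both lists, and a step there was not tested.

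On a finer scale, the distribution of peaks along the copies did not run in parallel. Across the 30 windows of 100 kb counted from the chromosome start, the numbers on chromosomes 11 and 12 correlated with a Pearson's r of 0.106 (Spearman's rho -0.0246) in replicate 1 and 0.191 (0.124) in replicate 2. The replicates of the same copy correlated more, with r = 0.357 (rho 0.323) on chromosome 11 and r = 0.536 (rho 0.356) on chromosome 12. These are descriptions over windows of the same libraries, and the lists share the GFP-Halo control. The position of a duplicate need not be at the same distance from the chromosome start, which would lower the values between copies. Among the windows with the most peaks over both lists, that from 500001 to 600000 held 18 on chromosome 12 and 10 on chromosome 11. The window from 300001 to 400000 held 15 on chromosome 11 and 7 on chromosome 12. Those from 600001 to 700000 and from 700001 to 800000 each held 16 and 8, and that from 1300001 to 1400000 held 9 and 17. The window from 2400001 to 2500000 was full on both, with 17 on chromosome 11 and 16 on chromosome 12, and that from 2800001 to 2900000 held 15 and 17. The window from 900001 to 1000000 held 1 peak on chromosome 11 and 6 on chromosome 12.

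The longest stretch with no summit in either list ran over 63753 bp on chromosome 11, from 1005583 to 1069336, and over 85538 bp on chromosome 12, from 1645157 to 1730695. The stretches lie at different distances from the chromosome start. The outermost summits were at 26756 on chromosome 11 and 14869 on chromosome 12.

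To look for peaks that recur at a common displacement between the copies, the offset of every chromosome 12 summit from every chromosome 11 summit was counted in bins of 1 kb, up to 200 kb either way. In replicate 1 the fullest bin held 15 pairs, beside a mean of 5.08 per bin, and began at an offset of -61000 bp. In replicate 2 it held 19, beside a mean of 8.90, and began at -53000 bp. The fullest bins of the replicates were thus different ones. The variance of the bins was 0.973 and 1.00 times their mean, beside 1.01 and 1.05 in the stretch from 3 to 9 Mb. With the lists pooled, which includes the pairs of replicate 2, the fullest bin held 51 beside a mean of 27.4 and began at -53000 bp. Its variance was 1.64 times the mean, beside 1.61 from 3 to 9 Mb. In bins of 5 kb the fullest began at -55000 bp in replicate 2 and in the pooled lists, but at 100000 bp in replicate 1. From 3 to 9 Mb it also began at -55000 bp in replicate 2. No offset was the fullest in both replicates, and the counts near -53000 bp were not tested. Insertions and deletions would spread true pairs over many offsets, so paired sites of the copies may be present and not be visible in this count.

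Pileup counts the captured fragments that lie over a summit, and its median was the same in both copies. The median was 11 fragments on chromosome 11 and on chromosome 12, in replicate 1 and in replicate 2. On chromosome 11 the range between the quartiles was 9 to 12 fragments in replicate 1 and 10 to 12 in replicate 2, and on chromosome 12 it was 10 to 12 in both lists. The means were 10.99 and 11.14 fragments in replicate 1 and 11.09 and 11.01 in replicate 2, a difference of -0.0361 ± 0.174 fragments (chromosome 11 minus chromosome 12, mean ± SD, n = 2 lists). No test was made on pileup, since peaks are not replicates and an exact two-sided permutation of the signs of the 2 within-list differences cannot give a p under 0.5. The weakest peaks of each list had a deposited -log10 p of 2.02, and q-values ran up to 0.644 and 0.530. Members had pileups from 8 upward, so the medians lie close to the lower bound of calling. In replicate 1 a 3 Mb window of chromosome 10 with a mean pileup of 37.8 still had a median of 11. Equal medians therefore say little about the copies.

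The segment lacked the very tall peaks found elsewhere. Its highest pileups were 19 and 20 on chromosome 11 and 23 and 20 on chromosome 12, and no member in either list reached 40 fragments. Such peaks made up 1.15% and 1.04% of all peaks in the lists. From 3 to 9 Mb, chromosome 11 had none either, with highest pileups of 23 and 25, whereas chromosome 12 had 17 and 23, with highest pileups of 230 and 223. These raised the mean pileup of that stretch to 17.3 and 16.5 fragments, while its median stayed at 11. Of these tall peaks, 16 in replicate 1 and 23 in replicate 2 lay from 5 to 6 Mb of chromosome 12. Absence of tall peaks is not particular to the segment: 65 of the 117 windows of 3 Mb had none in either list.

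**Figure D3:**
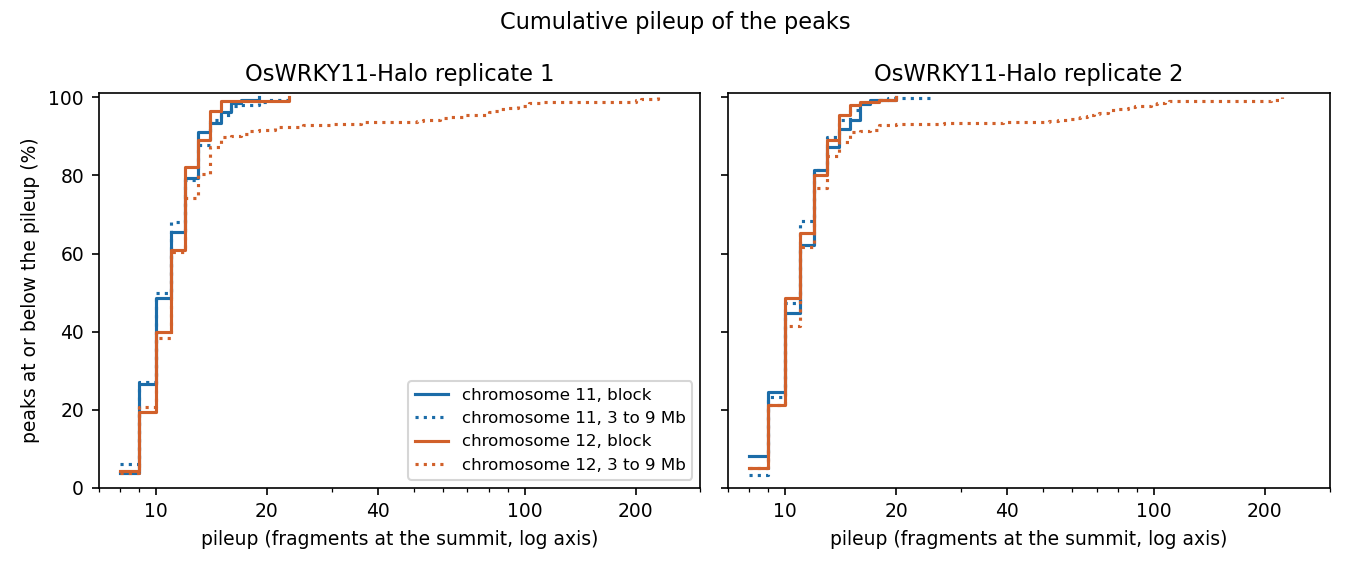
Cumulative share of peaks (vertical axis, percent) by pileup (horizontal axis, fragments, log scale), with solid lines for the duplicated segment and dotted lines for 3 to 9 Mb. All curves have a median of 11, and those of the segment end at 19 to 23 fragments, while the stretch from 3 to 9 Mb of chromosome 12 runs on to 230 and 223.

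Fold enrichment over GFP-Halo had similar medians in the copies. Its median was 2.81 on chromosome 11 and 2.84 on chromosome 12 in replicate 1, and 2.71 on both in replicate 2, beside 2.81 and 2.71 over all peaks. At most members of each copy and list the background in this ratio was the same lowest value, described below. Fold there follows from pileup alone, so the similar medians are not separate evidence. A fold of at least 4 was reached by 7 peaks of chromosome 11 and 3 of chromosome 12 in each list. That is 5.15% (95% Wilson interval 2.52% to 10.2%) and 2.54% (0.868% to 7.21%) of the members in replicate 1, where the share of the whole list was 4.06%. In replicate 2 it is 4.07% (1.99% to 8.16%) and 1.92% (0.656% to 5.50%), beside 1.71%. The interval of chromosome 11 in replicate 2 lies above the share of its list, and the other 3 include theirs; no test was made of this share. A fold of 5 was passed only in replicate 2, by 1 peak on each copy. In replicate 1 the q-value was 0.05 or lower at 38 peaks (27.9%, 95% Wilson interval 21.1% to 36.0%) on chromosome 11 and 33 (28.0%, 20.7% to 36.7%) on chromosome 12, where the share over the whole list was 29.9%. In replicate 2 that held for 58 (33.7%, 27.1% to 41.1%) and 44 (28.2%, 21.7% to 35.7%), beside 28.2% of the whole list. All 4 intervals include the share of their list. Of the 117 windows of 3 Mb, 76 and 73 had a higher share than the copies on chromosomes 11 and 12 in replicate 1, and 10 and 48 in replicate 2.

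The length of peaks ordered the copies differently in each list. The median was 147 bp on chromosome 11 and 179 bp on chromosome 12 in replicate 1, and 164 bp and 150.5 bp in replicate 2. Members covered 0.822% and 0.815% of the copies in replicate 1 and 1.05% and 0.925% in replicate 2.

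The GFP-Halo background beneath the peaks gives only a limited view of control coverage in the segment. It was computed from the deposited pileup and fold, and its lowest value in each list, 2.91 and 3.06, lies under most peaks. A value common to so many peaks is a floor of the list and not a count of control fragments at each site. Differences in control coverage below that floor cannot be seen. In replicate 1, 77 peaks of chromosome 11 (56.6%) and 67 of chromosome 12 (56.8%) were on this lowest background, beside 58.2% of the list. In replicate 2 the numbers were 94 (54.7%) and 79 (50.6%), beside 52.8%. Against 3 to 9 Mb of the same chromosome, the share differed by -1.62 percentage points (95% Newcombe interval -11.8 to 8.44) and -1.14 (-10.1 to 7.72) on chromosome 11, and by -0.201 (-10.9 to 10.3) and 2.57 (-6.74 to 11.8) on chromosome 12, in replicates 1 and 2. Two-sided Fisher's exact tests gave adjusted p-values from 0.843 to 1. The background under members rose to at most 1.79 times the lowest, while it reached 25.3 times the lowest from 3 to 9 Mb on chromosome 12. That highest background lay from 5 to 6 Mb in both lists.

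The last comparison asked which members recurred in both reactions. A peak had a partner when a peak of the other list overlapped it by at least 50% of the shorter of the pair. In replicate 1, 28 of 136 peaks on chromosome 11 (20.6%, 95% Wilson interval 14.6% to 28.1%) and 18 of 118 on chromosome 12 (15.3%, 9.87% to 22.8%) had a partner, where the share over the whole list was 17.6%. In replicate 2 the shares were 16.9% (29 of 172, 12% to 23.2%) and 12.2% (19 of 156, 7.94% to 18.2%), beside 13.1% of the list. All intervals include the share of their list. Among the 117 windows of 3 Mb, the share of chromosome 11 was exceeded in 23 windows in replicate 1 and in 10 in replicate 2, and that of chromosome 12 in 78 and 62. Chromosome 11 was higher by 5.33 percentage points in replicate 1 (95% Newcombe interval -4.29 to 14.6) and by 4.68 in replicate 2 (-3.09 to 12.3). Neither difference passed Fisher's exact test (odds ratios 1.44 and 1.46, two-sided, adjusted p = 0.703 for both). The difference depended on how a partner was defined: it was 0.860 and 1.03 points when the overlap had to be at least 50% of both peaks, and 1.88 and 1.95 points with summits within 100 bp. It was larger with a segment of 2 Mb, at 9.41 (-3.60 to 21.7) and 7.16 points (-2.73 to 16.7). The pairs counted from either list are nearly the same ones, so the lists are not independent here, and a control common to both may add to the overlap.

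Against 3 to 9 Mb, the share on chromosome 11 was higher in the segment, at 20.6% against 16.9% in replicate 1 and 16.9% against 11.9% in replicate 2. The differences were 3.73 percentage points (-4.05 to 12.3) and 5.00 (-1.10 to 11.9), and neither passed (Fisher's exact test, adjusted p = 0.703 for both). They turned to -1.61 and -0.174 points when the overlap had to be 50% of both peaks. On chromosome 12 it was lower in the segment, at 15.3% against 20.4% and 12.2% against 14.9%. These differences of -5.12 (-12.6 to 3.64) and -2.74 points (-8.59 to 4.16) did not pass either (Fisher's exact test, adjusted p = 0.703 and 0.715). They shrank to -0.875 and 0.380 points when peaks with a pileup of 40 or more were left out. The opposite directions on the chromosomes were compared by the ratio of their odds ratios, which was 1.82 (95% Wald interval 0.828 to 3.99) in replicate 1 and 1.91 (0.894 to 4.06) in replicate 2. Both intervals include 1.

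Along chromosome 11 the shared peaks lay toward the chromosome end. Its 1 Mb windows held 14, 9 and 5 shared peaks in replicate 1, from the end inward, which is 29.8% (95% Wilson interval 18.7% to 44.0%), 23.1% (12.6% to 38.3%) and 10% (4.35% to 21.4%) of their peaks. In replicate 2 they held 14, 9 and 6, or 23.7% (14.7% to 36.0%), 15.5% (8.38% to 26.9%) and 10.9% (5.10% to 21.8%). On chromosome 12 the windows held 6, 7 and 5 in replicate 1 and 6, 7 and 6 in replicate 2, with shares from 11.6% to 18.8% and from 11.5% to 13.5%. The outermost window of chromosome 11 was picked out with its values known, and no test was made of it. A higher share was found in 11 of 368 whole 1 Mb windows in replicate 1 and in 14 of 366 in replicate 2, and the intervals of its share and of that of the third window overlap in both lists.

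**Figure D4:**
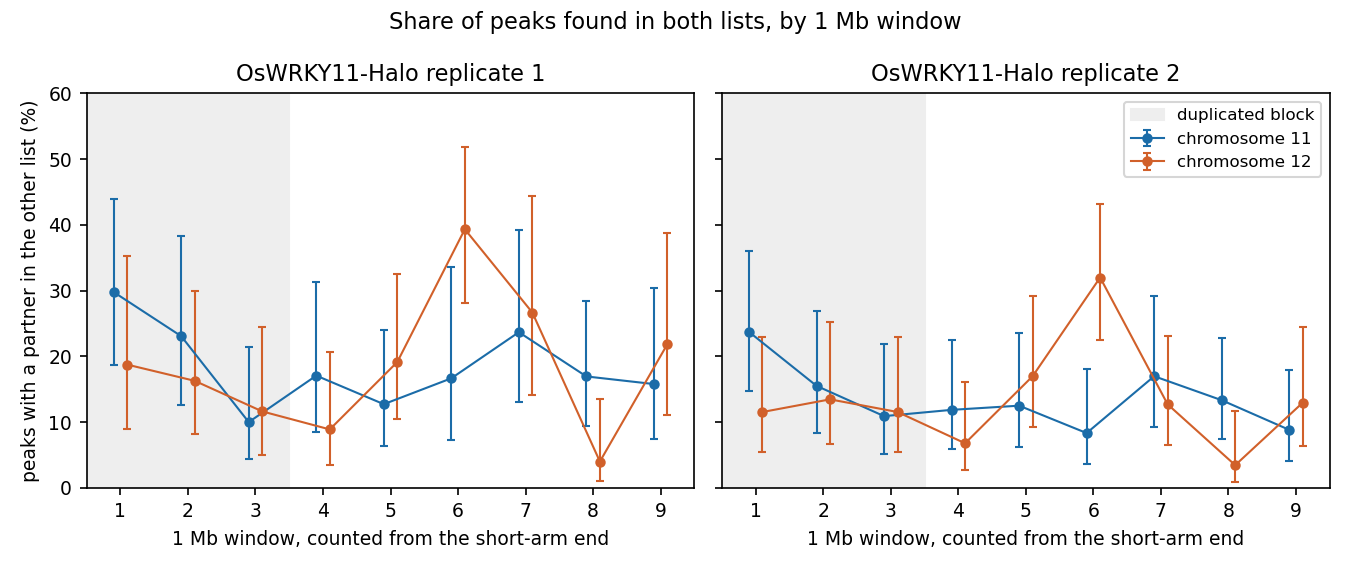
Share of peaks with a partner in the other list (vertical axis, percent) in windows 1 to 9 of 1 Mb from the short-arm end (horizontal axis), with 95% Wilson intervals as bars and the duplicated segment shaded. The outermost window of chromosome 11 stands at 29.8% and 23.7%, and the highest points, 39.3% and 32.0%, are in window 6 of chromosome 12, outside the segment.

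Partners were found more often at members with a higher fold. Counted over both copies, 4 of 41 replicate 1 peaks with a fold from 2 to 2.5 had a partner (9.76%, 95% Wilson interval 3.86% to 22.5%). The share was 14 of 114 (12.3%, 7.46% to 19.6%) from 2.5 to 3, 14 of 67 (20.9%, 12.9% to 32.1%) from 3 to 3.5, and 14 of 32 (43.8%, 28.2% to 60.7%) at 3.5 and above. In replicate 2 the same classes gave 10% (5.68% to 17.0%), 10.6%, 20.6% and 37.0% (21.5% to 55.8%). The last rise was not seen on chromosome 12 in replicate 2. There 6 of 30 peaks (20%) had a partner from 3 to 3.5 and 2 of 11 (18.2%, 5.14% to 47.7%) at 3.5 and above. On chromosome 11 the highest class held 8 of 16 (50%, 28.0% to 72.0%). Over both copies, the intervals of the lowest and the highest class did not overlap in either list, and no test was made. Over all peaks the classes stood at 11.3%, 12.8%, 19.1% and 36.6% in replicate 1 and at 7.95%, 11.6%, 17.3% and 32.9% in replicate 2, each within the interval of the members.

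Counted from replicate 2, 29 members on chromosome 11 and 19 on chromosome 12 had a partner. The pairs described here were counted from replicate 1, and the 46 pairs of the segment had 46 distinct partners. Their summits lay a median of 68 bp apart on chromosome 11 (range 27 to 440 bp, 28 pairs) and 41 bp apart on chromosome 12 (range 3 to 594 bp, 18 pairs), beside 58 bp over all 2805 pairs of the lists. Within 100 bp were 18 and 13 of them, together 67.4% beside 70.4% of all pairs, and within 10 bp none on chromosome 11 and 3 on chromosome 12. On chromosome 11, 10 pairs had a fold of 3 or more in each list, and on chromosome 12, 7 had, together 37.0% beside 30.5% of all pairs. No pair of the segment reached 4 in both lists, where 48 of the 2805 pairs did (1.71%). The q-value was 0.05 or lower on both sides at 9 and 4 pairs, and on neither side at 9 and 6. Of all single peaks, 29.9% in replicate 1 and 28.2% in replicate 2 reached that q-value. The share over all 2805 pairs was not computed, so these counts cannot be called particular to the segment. Across the pairs, fold enrichment in the replicates had a Spearman's rho of 0.256 on chromosome 11 and 0.306 on chromosome 12. These are correlations across sites with a common control, given as description.

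**Figure D5:**
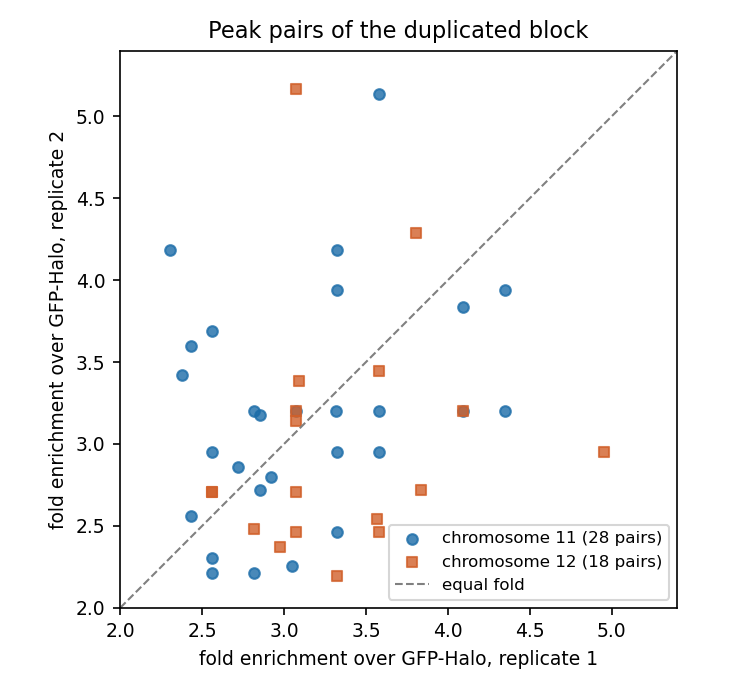
Fold enrichment in replicate 1 (horizontal axis) and replicate 2 (vertical axis) of the 28 pairs on chromosome 11 and the 18 on chromosome 12, where some points coincide. The pairs scatter widely about the dashed line of equal fold, and none exceeds 4 on both axes.

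The leading pairs, ranked by the lower of their replicate folds, were then examined, 6 on each copy. On chromosome 11 the leading site spanned 2438757 to 2439307 in replicate 1 and 2439093 to 2439354 in replicate 2. It held 16 fragments (exact 95% Poisson interval 9.15 to 26) in replicate 1 and 15 (8.40 to 24.7) in replicate 2, with folds of 4.35 and 3.94 (4.14 ± 0.291, mean ± SD, n = 2). A site at 1082757 to 1083453 followed with folds of 4.09 and 3.83 (3.96 ± 0.183) and pileups of 15 and 16. Its summits were 440 bp apart, the widest distance of the copy, so the lists may mark different points of that interval.

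The other 4 sites of chromosome 11 differed more between the replicates. The site at 1005499 to 1005626 had pileups of 13 and 20 and folds of 3.58 and 5.13 (4.36 ± 1.10, SD, n = 2). It borders the longest empty stretch of the copy, and its replicate 2 fold is the highest of chromosome 11 in the segment. At 248396 to 248620 the folds were 3.33 and 3.94, and at 1180649 to 1180787 they were 3.33 and 4.18. The sixth, at 319181 to 319557, was weaker in replicate 2, with folds of 4.35 and 3.20. The q-value of all 6 was 0.05 or lower in each list. Their mean folds, from 3.63 to 4.36, differed by less than the largest spread between replicates.

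On chromosome 12 the leading site spanned 1286985 to 1287414 in replicate 1 and 1287108 to 1287322 in replicate 2. It held 15 (8.40 to 24.7) fragments in replicate 1 and 18 (10.7 to 28.4) in replicate 2, with folds of 3.81 and 4.29 (4.05 ± 0.340, SD, n = 2). The second, at 519265 to 519976, had 13 fragments and a long peak in both lists, of 712 and 676 bp, with folds of 3.58 and 3.45 (3.51 ± 0.0966). The third, at 1840695 to 1841297, had folds of 4.09 and 3.20 and summits only 7 bp apart.

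The remaining 3 had a lower fold close to 3. At 2475946 to 2476252 the folds were 3.09 and 3.38, with summits 13 bp apart. At 76650 to 76794, the outermost pair of the copy, they were 3.07 and 3.20, with summits 8 bp apart. The sixth, at 1087804 to 1088015, had pileups of 11 (5.49 to 19.7) and 20 (12.2 to 30.9) and folds of 3.07 and 5.17 (4.12 ± 1.48), the latter being the highest of the segment in replicate 2. The last of these sites had the widest gap between replicates of the 12, and even there the Poisson intervals of the pileups overlap. The fifth and sixth missed a q-value of 0.05 in replicate 1, at 0.0655 for both.

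Among the 3 tallest members per copy and list, some had no partner by the overlap rule and others had one. Over all peaks a partner was found for 17.6% in replicate 1 and 13.1% in replicate 2, so most peaks lack one. The highest pileup of replicate 1 on chromosome 11, 19 fragments (exact 95% Poisson interval 11.4 to 29.7) and a fold of 4.13 at 30543 to 30684, had no partner, and the nearest summit of replicate 2 was 2374 bp away. The next, 17 fragments at 2303697 to 2303943, had its nearest summit 29851 bp away. In replicate 2, a peak of 17 fragments at 2944651 to 2944956 on chromosome 11 had a replicate 1 summit 286 bp away, with 10 fragments and a fold of 2.81, but the peaks did not overlap. Peaks of 17 fragments at 2772058 to 2772186 on chromosome 11 and of 16 at 2230874 to 2231063 on chromosome 12 had no partner, with nearest summits 16363 and 4666 bp away. The tallest member of all, 23 fragments (14.6 to 34.5) and a fold of 4.95 at 2024315 to 2024867 on chromosome 12 in replicate 1, had a partner with 11 fragments and a fold of 2.95, its summit 228 bp away. A pileup of 15 at 2821771 to 2821969 on chromosome 12 in replicate 1 had no partner and a nearest summit 6043 bp away. The other peaks among the 3 tallest per copy and list had a partner. On chromosome 11 they were at 319181 to 319557 in replicate 1 and 1005518 to 1005757 in replicate 2. On chromosome 12 they were at 1840695 to 1841297 in replicate 1, and at 1087847 to 1088047 and 1287108 to 1287322 in replicate 2.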

How the data were processed

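The submitters' processing notes name MACS2 2.2.7.1, Trimmomatic 0.36 and BWA 0.7.12-r1039 and give no role or options. Build, read totals and alignment filters: not given in the sources used here. Peak names show each OsWRKY11-Halo library called separately against the GFP-Halo library. Per the file headers, the deposited values are a pileup (a coverage signal, whole fragments at the summit), a fold enrichment ratio, and the -log10 of a p-value and of a q-value. These are the authors' values per peak, and read depth per library is unknown.

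The GFP-Halo background was computed as (pileup + 1) / fold - 1; with it, a Poisson tail gave the deposited -log10 p within 0.01 for 100% of peaks. Backgrounds within 0.001 of the lowest count as lowest. The partner is the overlapping peak with the nearest summit. Densities were compared by exact conditional binomial tests and shares by Fisher's exact tests, two-sided, with 16 p-values adjusted together by Benjamini-Hochberg and a threshold of 0.05. Neighbouring peaks are not independent, so p-values describe these lists. Intervals are at 95% and cover counting error only, and without molecular identifiers sequenced fragments need not be separate molecules. Named sites are, per copy, the 6 pairs with the highest fold in the weaker list and, per copy and list, the 3 peaks with the highest pileup and the 1 with the highest fold. The segment and the tests were chosen with earlier results of these data known. Counting steps were tested on simulated lists. Sequences, genes and motifs were not analysed here. Software was scipy 1.17.1, pandas 2.3.3, numpy 2.4.6 and matplotlib 3.10.9 under Python 3.11.15.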

Additional observations from a re-analysis of the deposited data

How the results depend on the processing

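None of the 16 tests passed at an adjusted 0.05, and none of the 110 tested alternatives did, the lowest adjusted p being 0.387. Some differences grew. With a segment of 2 Mb, the share on chromosome 11 minus that from 3 to 9 Mb was 9.89 points (0.264 to 20.9) and 7.80 (0.596 to 16.4). Both intervals exclude 0, but the adjusted p was 0.463 (Fisher's exact test). Against 3 to 6 Mb, the density ratio on chromosome 12 in replicate 1 was 0.771 (0.601 to 0.987, exact binomial test, adjusted p = 0.387). Directions that turned were all of uncalled differences, and their cause was not tested. The density ratio of the segment to 3 to 9 Mb on chromosome 11 became 0.990 at a fold of at least 3 and 0.989 with a segment of 2 Mb in replicate 1, and 1.12 with q-values up to 0.05 and 1.06 at a fold of at least 3 in replicate 2; on chromosome 12 it became 1.05 against 6 to 9 Mb in replicate 1. The share of chromosome 11 minus that of chromosome 12 became -0.994 points at a fold of at least 3 in replicate 2. With an overlap of 50% of both peaks, the share on chromosome 11 minus that from 3 to 9 Mb became -1.61 and -0.174 points. On chromosome 12 it became 3.51 and 3.03 at a fold of at least 3, 0.0757 and 2.47 against 6 to 9 Mb, and 0.380 at a pileup under 40 in replicate 2. The difference in lowest background became 1.86 and 0.937 (chromosome 11) and 1.88 (chromosome 12, replicate 1) against 3 to 6 Mb, 12 and 1.33 with q-values up to 0.05 in replicate 1, and 2.32 with a segment of 2 Mb on chromosome 11 in replicate 2.

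The difference of 0 in median pileup became, as a mean of both lists, 0.5 between the copies with a segment of 2 Mb, 0.5 on chromosome 11 against 3 to 6 Mb and against 6 to 9 Mb, and -0.5 on chromosome 12 with q-values up to 0.05 and with a segment of 2 Mb. With means in place of medians it was -0.0361, 0.0309 and, with the tall peaks of chromosome 12 outside the segment, -5.84. The fullest offset bin, relative to the mean bin, fell to 1.53 with bins of 5 kb, which hold more pairs. The values of each list alone, chosen as an alternative after seeing the data except for the copies' density, ran from 1.10 to 1.15 for the density ratio of the copies, from 0.927 to 1.04 and from 0.862 to 0.891 for the ratios to 3 to 9 Mb on chromosomes 11 and 12, from -1.62 to -1.14 and from -0.201 to 2.57 for the lowest background, and stayed at 0 for median pileup. Leaving out a list leaves no shared peaks to count. No paired analysis was possible because the OsWRKY11-Halo and GFP-Halo groups share fewer than 2 replicate numbers; copies and stretches were compared within each list. Precision is limited by a median of 11 fragments per peak and by 118 to 172 peaks per copy and list.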
